A study of Mus musculus with 1307 samples.

Results

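The genes described here are 10 components of the contractile apparatus of smooth muscle. They are Myh11, the smooth muscle myosin heavy chain, with the regulatory light chain Myl9, the essential light chain Myl6 and the light-chain kinase Mylk. The nonmuscle heavy chains Myh9 and Myh10 and the actin-associated proteins Smtn, Cnn1, Tagln and Lmod1 complete the set. They were taken by symbol from a count table of 46517 genes, all 10 were in the table and all 10 passed the filter on low counts. The table holds 1307 single cells of dissociated mouse hearts, sorted into 384-well plates and sequenced by the Smart-Seq2 protocol, which copies whole transcripts and carries no molecular identifiers. In the labels every cell counts as its own sample, and here the mouse was the replicate. The labels name 3 mice that carry both reporters, ACTA2GFP and CSPG4dsRED (949 cells), 3 C57BL/6 mice (352 cells), 1 CSPG4dsRED mouse (3 cells) and 1 ACTA2GFP mouse (3 cells), all aged 8 to 30 weeks. By their names the reporters mark cells that use the promoter of smooth muscle actin or of the proteoglycan NG2, and the sources used here do not give the sort gate. Double-reporter mouse 3 is labelled female although the design text speaks of males, and since the 4 mice with many cells had separate plates, mouse cannot be told apart from plate. The labels name no treatment and no deleted gene in any group.

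Smooth muscle myosin II is a hexamer of a pair of heavy chains, each carrying an essential and a regulatory light chain. Calcium-bound calmodulin activates the kinase Mylk, which phosphorylates the regulatory light chain and lets the heads cycle on actin, and a phosphatase built of a catalytic subunit and a targeting subunit reverses it. Calponin, transgelin, smoothelin and leiomodin bind the actin filaments on which that myosin pulls. In the heart these proteins are known from the medial cells of coronary arteries, while pericytes of capillaries are known to hold less of them.

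The cells were grouped into classes without using any of the 10 genes or the related gene lists, all of which were withheld from the clustering. Clusters were named from separate markers. Smooth muscle cells came from clusters 1 and 10, in which 7 and 4 of the 7 smooth muscle markers were raised, and had Vtn below 100 CPM (counts per 1000000 counts of the sum or cell). Vtn-positive mural cells were cells of the mural clusters (1, 6, 8 and 10) with Vtn at 100 CPM or more and Kcnj8 + Abcc9 below 2500 CPM. They came from clusters 1, 6 and 8. Pericytes were mural cells with Kcnj8 + Abcc9 at 2500 CPM or more. Double-reporter mice 1, 2 and 3 gave 99, 67 and 14 smooth muscle cells, 57, 26 and 10 Vtn-positive mural cells, 56, 15 and 8 pericytes, and 74, 99 and 231 fibroblasts. The cells nearest the pericyte gate were at 2495 and 2606 CPM, and those nearest the Vtn gate at 98.0 and 173 CPM. The smooth muscle markers, which hold none of the 10 genes, summed to between 9315 and 12812 CPM in the 3 smooth muscle sums, 6884 to 10390 in Vtn-positive cells, 3653 to 4055 in pericytes and 242 to 913 in fibroblasts. Pericyte markers, among them the gate's own genes, summed to 18261 to 20344 CPM in pericytes, 5855 to 6946 in Vtn-positive cells and 1114 to 2154 in smooth muscle. Cluster 6, in which 5 of the 8 pericyte and 2 of the 7 smooth muscle markers were raised and which the markers name pericyte-like, gave 43 of 57, 15 of 26 and 1 of 10 Vtn-positive cells in mice 1, 2 and 3. The classes differed in makeup between mice: 8 of the 10 Vtn-positive cells of mouse 3 came from cluster 1, against 12 of 57 in mouse 1. In the fibroblast class cluster 0 gave 70 of 74, 62 of 99 and 26 of 231 cells, and the part of this makeup in the fibroblast values of single mice was not tested. Endothelial markers summed to 224 to 942 CPM in the pericytes and 102 to 145 CPM in smooth muscle. The classes are rebuilt from expression in the same cells and were not checked against another measurement of cell identity.

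Cells held 50476 to 811982 counts (median 274702), and the median was 245036 in smooth muscle cells, 254605 in Vtn-positive cells, 263511 in pericytes and 271026 in fibroblasts. Levels below are the CPM of counts summed per mouse and class, so they are relative to all RNA of those cells.

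**Figure D1:**
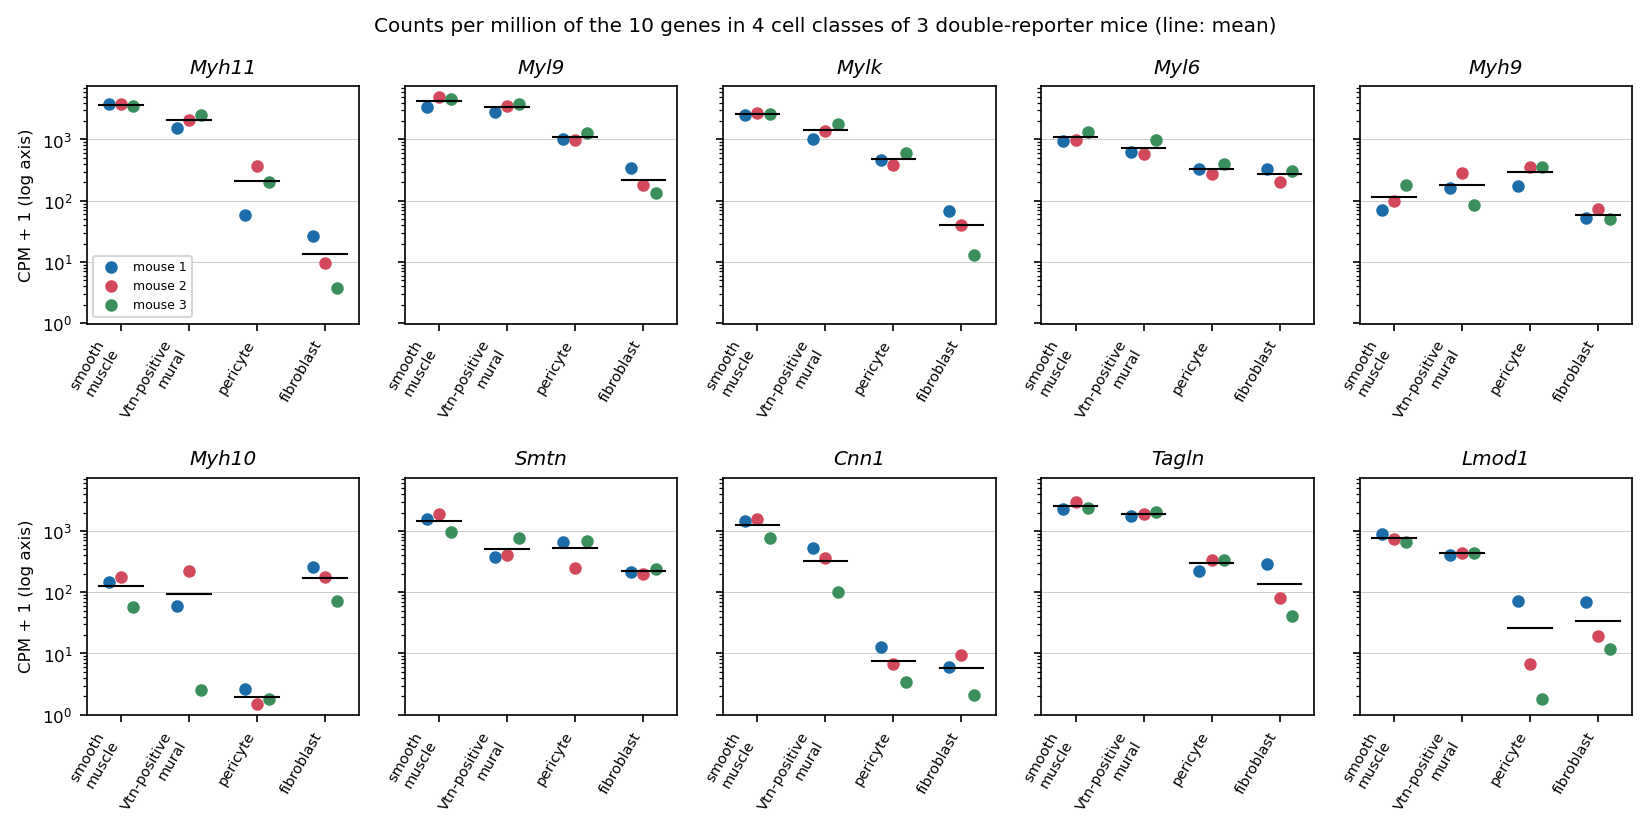
Level of each of the 10 genes (CPM of summed counts plus 1, log axis) in the 4 cell classes, with 1 point for each double-reporter mouse and a line at the mean. Myh11 falls from about 3694 CPM in smooth muscle to 12.4 CPM in fibroblasts, while the Myh10 points of pericytes lie at 0.474 to 1.60 CPM, below all points of smooth muscle and of fibroblasts.

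The heavy chains did not follow a single order. Myh11 (chromosome 16, 14194535 to 14291372, minus strand of GRCm38) stood at 3751, 3865 and 3468 CPM in the smooth muscle cells of mice 1, 2 and 3, a mean of 3694 ± 204.5 (SD, n = 3). It was at 1518, 2106 and 2529 CPM in Vtn-positive mural cells, 57.1, 374 and 202 in pericytes and 25.7, 8.69 and 2.76 in fibroblasts. No 2 neighbouring classes overlapped. The step from smooth muscle to Vtn-positive cells, 0.80 ± 0.71 (SE) on the log2 scale, did not pass the test (adjusted p = 0.887), and those from Vtn-positive cells to pericytes did not either (log2 change 3.39 ± 0.78, adjusted p = 0.121). Between the more distant classes Myh11 rose by 4.19 ± 0.81 on the log2 scale from pericytes to smooth muscle (adjusted p = 0.0235), by 4.09 ± 0.85 from fibroblasts to pericytes (adjusted p = 0.0239) and by 8.28 ± 0.97 from fibroblasts to smooth muscle (adjusted p = 0.00107). The call between pericytes and fibroblasts was lost without mouse 2 (log2 change 3.22, adjusted p = 0.268) and without mouse 3 (3.37, adjusted p = 0.146), and the change was 5.81 without mouse 1. The pericyte value rested on few cells: Myh11 reached 100 CPM in 7 of 56, 3 of 15 and 2 of 8 pericytes, and the median pericyte had 10.3, 16.9 and 13.9 CPM. In mouse 2 the 3 pericytes of cluster 6 had 1028 CPM and the 12 of cluster 8 had 78.5 CPM.

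Myh10, the nonmuscle heavy chain IIB (chromosome 11, 68691559 to 68816632, plus strand), was lowest in pericytes. Its sums were 146, 174 and 55.8 CPM in smooth muscle, 59.1, 219 and 1.56 in Vtn-positive cells, 1.60, 0.474 and 0.804 in pericytes and 261, 178 and 71.8 in fibroblasts. The pericyte values rest on 27, 1 and 1 counts. All pericyte sums lay below all smooth muscle and all fibroblast sums, while smooth muscle, Vtn-positive cells and fibroblasts overlapped. Myh10 was higher in smooth muscle than in pericytes by 7.03 ± 1.25 on the log2 scale (adjusted p = 0.0169) and lower in pericytes than in fibroblasts by 7.46 ± 1.26 (log2 change -7.46, adjusted p = 0.0072). Counted mouse by mouse, the ratio of smooth muscle to pericytes was 91.0 (95% exact interval 62.5 to 138) in mouse 1. It was 368 (65.9 to 14524) and 69.5 (12.2 to 2769) in mice 2 and 3. These intervals cover counting error only and leave out the spread between cells. They treat each read as independent, although PCR copies of a molecule are counted as separate reads. Fibroblast markers summed to 2121 to 3304 CPM in smooth muscle, 1718 to 7326 in Vtn-positive cells, 2232 to 4807 in pericytes and 15204 to 23589 in fibroblasts. The part of fibroblast RNA in the Myh10 values was not tested. With mouse 1 left out the call between smooth muscle and pericytes was lost (adjusted p = 0.23), and with mouse 2 left out as well (adjusted p = 0.144), at log2 changes of 7.56 and 6.63. The call between pericytes and fibroblasts was lost without either of these mice too (adjusted p = 0.166 and 0.0716).

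Myh9, the nonmuscle heavy chain IIA (chromosome 15, 77760587 to 77842175, minus strand), had its highest mean in pericytes. It was at 69.9, 98.5 and 177 CPM in smooth muscle, 163, 286 and 82.7 in Vtn-positive cells, 170, 349 and 353 in pericytes and 50.7, 72.9 and 49.3 in fibroblasts. It was higher in pericytes than in fibroblasts by 2.27 ± 0.53 on the log2 scale (adjusted p = 0.0383). This call, too, was lost without mouse 1 or mouse 2 (adjusted p = 0.209 and 0.312). Against smooth muscle the pericyte sums were higher in every mouse, but the classes overlapped across mice and the change of -1.27 ± 0.51 did not pass the test (adjusted p = 0.253).

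Levels of different genes can be compared only per length. Per kilobase of exon, Myh11 made up 96.2%, 95.4% and 96.0% of the heavy-chain reads of Myh11, Myh9, Myh10 and Myh14 in smooth muscle, and 91.6%, 86.6% and 98.1% in Vtn-positive cells. In pericytes the reads were split between Myh11 (36.1%, 64.5% and 49.2%) and Myh9 (63.1%, 35.4% and 50.6%), and Myh10 held 0.313% ± 0.369 (SD, n = 3). This is the makeup of summed reads, not of a typical cell, since few pericytes carried the Myh11 sum. The median pericyte of mice 1, 2 and 3 had 10.3, 16.9 and 13.9 CPM of Myh11 and 18.1, 94.9 and 144 CPM of Myh9. In fibroblasts Myh10 held 68.9% ± 6.88, Myh9 23.1% ± 11.1 and Myh11 6.03% ± 3.57. In all 3 mice Myh9 was the larger nonmuscle share in pericytes and Myh10 in fibroblasts.

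**Figure D2:**
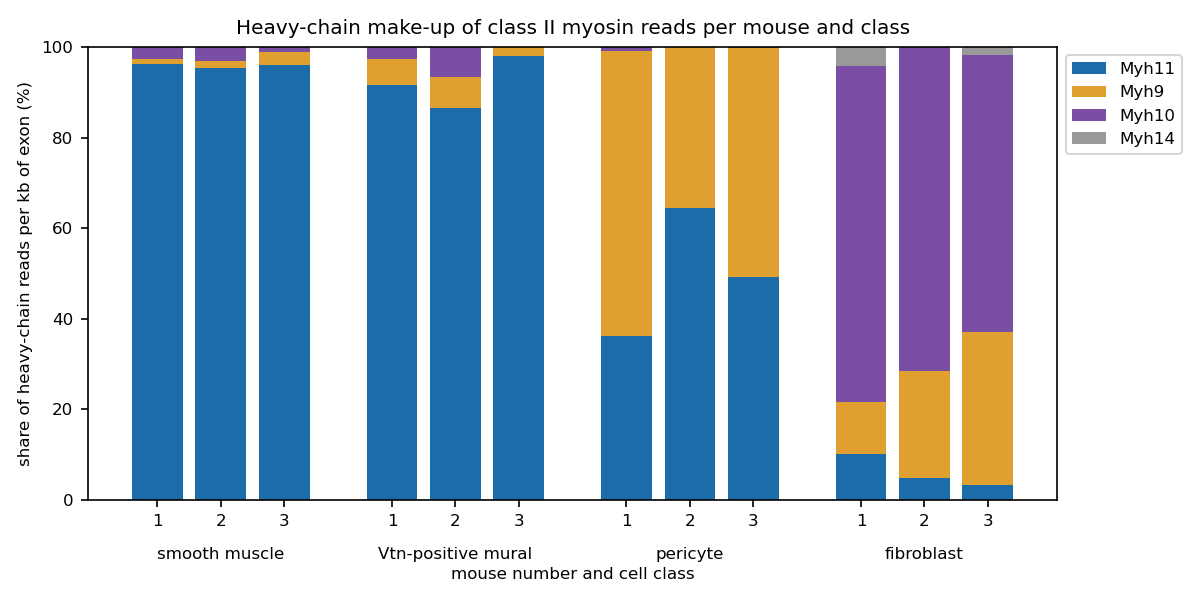
Share of each heavy chain among the heavy-chain reads per kilobase of exon (%), 1 stacked bar for each mouse and class. Myh11 fills 95.4% to 96.2% of the smooth muscle bars, pericyte bars are divided between Myh11 and Myh9, and Myh10 takes 61.1% to 74.1% of the fibroblast bars. Bars show summed reads, and few pericytes carried the Myh11 part.

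The light chains were present in all 4 classes. Myl9 (chromosome 2, 156775420 to 156781658, plus strand), the regulatory chain of smooth muscle myosin, was at 3365, 4977 and 4632 CPM in smooth muscle, 2777, 3571 and 3833 in Vtn-positive cells, 1010, 989 and 1275 in pericytes and 347, 177 and 133 in fibroblasts. Smooth muscle and Vtn-positive sums overlapped, and each of these classes lay above pericytes, which lay above fibroblasts. Myl9 was higher in smooth muscle than in fibroblasts by 4.32 ± 0.37 on the log2 scale (adjusted p = 0.000115), higher than in pericytes by 2.02 ± 0.33 (adjusted p = 0.0114), and higher in pericytes than in fibroblasts by 2.31 ± 0.34 (adjusted p = 0.00318). At 3722 ± 730 CPM per kilobase (SD, n = 3) it had the highest level per length of the 10 genes in smooth muscle.

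Myl6 (chromosome 10, 128490860 to 128494145, minus strand), the essential light chain shared by smooth muscle and nonmuscle myosin, had the smallest called step. Its sums were 927, 982 and 1339 CPM in smooth muscle, 628, 589 and 978 in Vtn-positive cells, 329, 275 and 392 in pericytes and 328, 198 and 302 in fibroblasts. It was higher in smooth muscle by 1.98 ± 0.24 on the log2 scale against fibroblasts (adjusted p = 0.00121) and by 1.73 ± 0.24 against pericytes (adjusted p = 0.0056). Pericytes and fibroblasts overlapped (log2 change 0.25 ± 0.23, adjusted p = 0.633).

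Mylk (chromosome 16, 34745210 to 35002420, plus strand), the kinase of the regulatory light chain, was at 2487, 2726 and 2596 CPM in smooth muscle, 1033, 1393 and 1802 in Vtn-positive cells, 455, 376 and 601 in pericytes and 66.5, 38.6 and 11.9 in fibroblasts. The 4 classes did not overlap. Mylk was higher in smooth muscle than in fibroblasts by 6.10 ± 0.59 on the log2 scale (adjusted p = 0.000268) and than in pericytes by 2.47 ± 0.50 (adjusted p = 0.0292), and higher in pericytes than in fibroblasts by 3.63 ± 0.53 (adjusted p = 0.00314). The step from Vtn-positive cells to smooth muscle was 0.86 ± 0.48 and not called (adjusted p = 0.71).

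Of the other myosin chains, 4 genes of which 3 were tested, 1 was called lower in smooth muscle than in fibroblasts and than in pericytes (3.36% and 2.16% of all genes were called either way). Myl12a, a regulatory light chain of nonmuscle myosin, was at 282, 234 and 172 CPM in smooth muscle, 582, 456 and 393 in Vtn-positive cells, 560, 411 and 682.5 in pericytes and 570, 438 and 496 in fibroblasts. All smooth muscle sums lay below those of every other class. It was lower in smooth muscle than in fibroblasts (log2 change -1.13 ± 0.27, adjusted p = 0.0483) and than in pericytes (-1.26 ± 0.27, adjusted p = 0.0413). Myl12b, its close paralogue, had means of 81.5, 140 and 221 CPM in smooth muscle, pericytes and fibroblasts and was not called (-1.51 ± 0.40 against fibroblasts, adjusted p = 0.072). Of the 40-base words of Myl12a, 22.1% also occur in other genes, mostly in Myl12b, so reads of the pair may be split or lost in counting. Myl6b stayed at means of 0.327 to 1.06 CPM in the 4 classes and was not called against any of them. Myh14, the third nonmuscle heavy chain, did not pass the filter and in the 4 classes reached 10.3 CPM at most, in the fibroblasts of 1 mouse. Outside these classes it held 65.4% of the heavy-chain reads per kilobase in the 18 Schwann cells of double-reporter mouse 3. In the Schwann cells of double-reporter mice 1 and 2 and of C57BL/6 mouse 1 it held 1.45%, 0% and 5.85%.

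The actin-associated genes separated smooth muscle from the other classes by very unequal amounts. Cnn1, or calponin (chromosome 9, 22099216 to 22109630, plus strand), was at 1436, 1546 and 774 CPM in smooth muscle, 520, 368 and 98.8 in Vtn-positive cells, 11.7, 5.69 and 2.41 in pericytes and 4.95, 8.40 and 1.07 in fibroblasts. Pericytes and fibroblasts overlapped near 0, and the classes above them did not overlap with them or with each other. It was the gene with the largest call of the set: 8.38 ± 0.58 on the log2 scale against fibroblasts (adjusted p = 3.12e-05) and 7.80 ± 0.58 against pericytes (adjusted p = 0.000184). It was also the only one of the 10 called between Vtn-positive cells and pericytes (5.58 ± 0.53, adjusted p = 0.0031).

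Lmod1, or leiomodin, which nucleates actin filaments (chromosome 1, 135324807 to 135368065, plus strand), was at 893, 740 and 672 CPM in smooth muscle, 410, 435 and 442 in Vtn-positive cells, 69.7, 5.69 and 0.804 in pericytes and 68.5, 18.6 and 11.003 in fibroblasts. The Vtn-positive sums were nearly equal in the 3 mice, and those of pericytes spanned the widest range, the lowest resting on 1 count. Lmod1 was higher in smooth muscle than in fibroblasts (5.13 ± 0.93, adjusted p = 0.0125) and than in pericytes (5.91 ± 1.003, adjusted p = 0.0129). Counted by mouse, the smooth muscle to pericyte ratio was 12.8 (95% interval 12.1 to 13.6), 130.1 (74.4 to 252) and 836 (149.7 to 33027) in turn. These intervals, too, cover counting error only and leave out the spread between cells. A few cells carried the pericyte sum of Lmod1 in mouse 1. The median pericyte of mice 1, 2 and 3 had 4.68, 0 and 0 CPM, and the highest had 894, 121 and 11.2 CPM. With mouse 2 or mouse 3 left out the pericyte call was lost (adjusted p = 0.178 and 0.0607).

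Tagln, or transgelin (chromosome 9, 45929619 to 45936058, minus strand), was at 2295, 2971 and 2412 CPM in smooth muscle, 1732, 1908 and 2025 in Vtn-positive cells, 224, 329 and 336 in pericytes and 286, 80.7 and 39.2 in fibroblasts. Smooth muscle lay above Vtn-positive cells and both lay far above the other classes, which overlapped. It was higher in smooth muscle than in fibroblasts (4.42 ± 0.61, adjusted p = 0.00253) and than in pericytes (3.11 ± 0.56, adjusted p = 0.0175). In pericytes, too, a few cells carried the sum: the median pericyte had 27.2, 51.4 and 17.8 CPM, and in mouse 1 the 8 pericytes of cluster 6 had 960 CPM against 113 CPM in the 48 of cluster 8.

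Smtn, or smoothelin (chromosome 11, 3517523 to 3540612, minus strand), was the least restricted gene of this group. Its sums were 1569, 1860 and 944 CPM in smooth muscle, 375, 406 and 758 in Vtn-positive cells, 669, 252 and 673 in pericytes and 210, 201 and 241 in fibroblasts. Smooth muscle stood above the other classes, and Vtn-positive cells and pericytes overlapped (log2 change 0.00 ± 0.39). Smtn was higher in smooth muscle than in fibroblasts (2.79 ± 0.42, adjusted p = 0.004), and the change against pericytes was not called (1.56 ± 0.41, adjusted p = 0.0849). Smtn shares 714 exonic bases with Gm11946 on the opposite strand, and Tagln shares 1241 with Gm48529, which was not in the table. The sources used here do not say whether counting used strand, so reads of Smtn and Gm11946 cannot be told apart. Mylk shares 548 exonic bases with the antisense gene E130310I04Rik, and the other 7 genes share none.

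**Figure D3:**
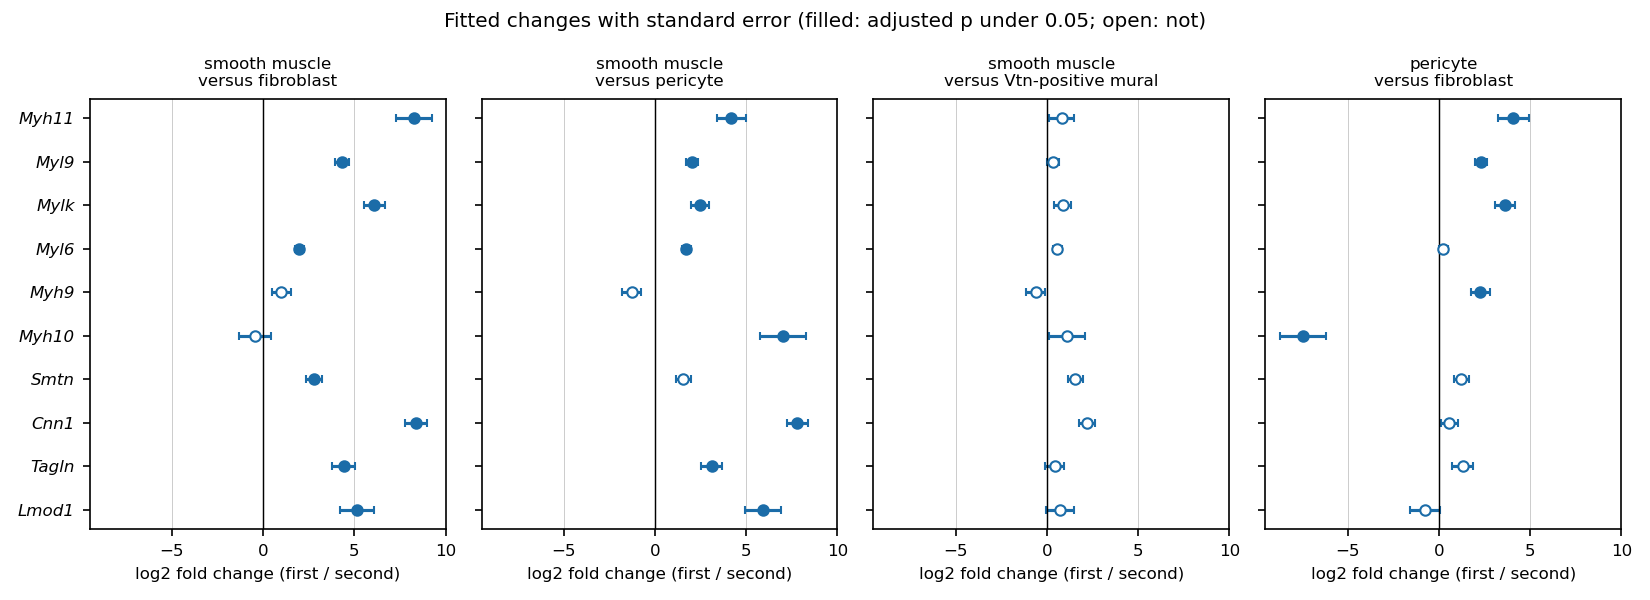
Fitted log2 fold change of each gene (x axis) in 4 of the class comparisons, with a standard error worked back from the test statistic. Filled points have an adjusted p under 0.05. Most points of the first and second panels lie well to the right of 0, all points of the third are open, and Myh10 stands alone at -7.46 in the fourth.

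Across genes, 8 of the 10 were called between smooth muscle and fibroblasts, all higher in smooth muscle, where 3.36% of the 16029 genes tested were called and 1.75% were higher. The 3 sums of each class lay apart for 8 of the 10 there, and for 28.9% of all genes. Against pericytes 8 were called, all higher in smooth muscle (2.16% of all genes were called, 1.38% higher), and 9 lay apart (18.4% of all genes). Between smooth muscle and Vtn-positive cells 0 of the 10 were called by edgeR (0.0998% of all genes), 3 had an unadjusted p under 0.05 (8.25% of all genes) and DESeq2 called 1, Cnn1 (3.79% of all genes). For 6 of the 10 genes the smooth muscle sums lay apart from the Vtn-positive sums (12.3% of all genes). Cnn1 had the largest difference there, 2.22 ± 0.44 on the log2 scale with an adjusted p of 0.14 in edgeR and 0.00484 in DESeq2, and was higher in smooth muscle in 3 of 3 mice. Vtn-positive cells differed from pericytes in 1 of the 10, Cnn1, which was higher (0.455% of all genes were called, 0.399% higher), while DESeq2 called 7 (6.61% of all genes) and 7 lay apart (10.8% of all genes). They differed from fibroblasts in 7, all higher (2.51% of all genes were called, 1.46% higher), and 9 lay apart (25.8% of all genes). Pericytes differed from fibroblasts in 5 (3.99% of all genes), with Myh11, Myl9, Mylk and Myh9 higher (1.48% of all genes) and Myh10 lower (2.51% of all genes), and 6 lay apart (28.9% of all genes). The median log2 change of the 10 was 4.37 between smooth muscle and fibroblasts and 2.79 between smooth muscle and pericytes, beside -0.28 and 0.30 over all genes. The comparisons share classes and mice, so they are not independent of each other. The calls between smooth muscle and pericytes changed when a mouse was left out. Of the 10 genes, 5 were called without mouse 1, 1 (Cnn1) without mouse 2 and 5 without mouse 3. The direction of every called gene was kept.

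Within the smooth muscle class the clusters 1 and 10 held these genes in different proportions. Myh10 was at 303, 428 and 221 CPM in cluster 10 and at 14.4, 42.3 and 0.709 CPM in cluster 1, with 37, 20 and 3 cells against 62, 47 and 11. Cnn1 was at 1884, 2104 and 1748 CPM in cluster 10 and 1063, 1256 and 450 in cluster 1, and Smtn at 1986, 2197 and 2167 against 1222, 1685 and 537. Mylk went the other way, with 1684, 1537 and 1563 CPM in cluster 10 and 3157, 3346 and 2940 in cluster 1, and so did Myh11, with 3455, 2884 and 2280 against 3997, 4376 and 3864. This is a description, since the clusters were formed from other genes of the same cells, and no test was run on it.

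A split that rests on a single gene, Rgs5, a regulator of G-protein signalling, was tested in the 2 mice with at least 5 cells on each side of 200 CPM. It gave the same directions, but the split is not independent of the clusters. Rgs5 was not withheld from the clustering and stood at 4717 CPM over all cells of cluster 1 and 236 CPM over those of cluster 10. The shared directions are therefore no separate support. Myh10 was at 49.8 and 113 CPM in Rgs5-high and 242 and 247 CPM in Rgs5-low smooth muscle cells of mice 1 and 2 (log2 change -1.72 ± 0.36). Smtn was at 1031 and 1174 against 2107 and 2675 CPM (-1.13 ± 0.17), and Cnn1 at 1028 and 1141 against 1844 and 2027 CPM (-0.85 ± 0.16). None of the 10 passed edgeR's test after adjustment (0.00726% of all genes did), with adjusted p of 0.279, 0.222 and 0.253 for these 3 genes, which had an unadjusted p under 0.05 (10.4% of all genes). DESeq2 called these 3 genes (6.4% of all genes). Myh11 and Myl9 changed by 0.16 ± 0.15 and 0.04 ± 0.17. In mouse 3, which did not enter the test with only 2 Rgs5-low cells, Myh10 was at 45.3 and 104 CPM.

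By single cells, Myh10 reached 100 CPM in 23 of 42 and 15 of 31 Rgs5-low cells and in 5 of 57 and 4 of 36 Rgs5-high cells of mice 1 and 2. All 28, 19 and 2 smooth muscle cells of mice 1, 2 and 3 with Myh10 at 100 CPM also had Cnn1 at 100 CPM, beside 79 of 99, 54 of 67 and 7 of 14 smooth muscle cells in all. The threshold of 100 CPM was chosen after the values were seen.

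**Figure D4:**
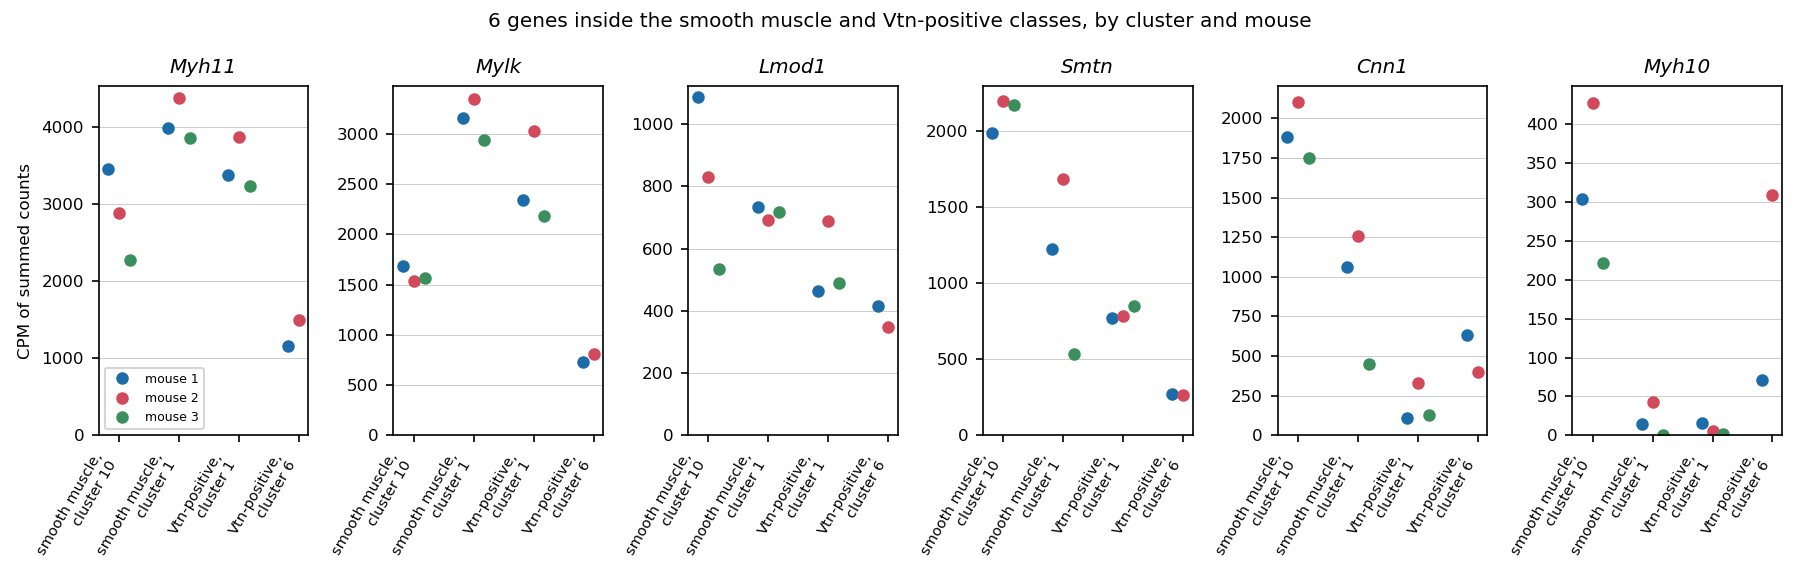
CPM of summed counts (y axis, from 0) of 6 genes in smooth muscle cells of clusters 10 and 1 and Vtn-positive cells of clusters 1 and 6, 1 point for each mouse; Vtn-positive cells of cluster 6 are shown for the 2 mice with over 1 cell. Among smooth muscle cells Myh10, Cnn1 and Smtn are higher in cluster 10 and Mylk and Myh11 in cluster 1, and Cnn1 is low in the Vtn-positive cells of cluster 1.

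The Vtn-positive class was itself mixed. Its cells of cluster 1 had Myh11 at 3377, 3870 and 3245 CPM, near the 3997, 4376 and 3864 CPM of Vtn-negative cells of that cluster, but Cnn1 at 108, 329 and 126.8 CPM against 1063, 1256 and 450. Its cells of cluster 6 had Myh11 at 1159 and 1499 CPM and Cnn1 at 636 and 398 CPM in mice 1 and 2. The 8 cells of cluster 1 make up most of the class in mouse 3, and the part of that makeup in its higher Myh11 there was not tested. With the class limited to cells of the smooth muscle clusters, 0 of the 10 genes were called against smooth muscle and Cnn1 differed by 2.73 (adjusted p = 0.112).

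Cell by cell, Cnn1 was either high or near 0. It reached 100 CPM in 79 of 99, 54 of 67 and 7 of 14 smooth muscle cells of mice 1, 2 and 3 and in 26 of 57, 10 of 26 and 1 of 10 Vtn-positive cells. Of pericytes 1 of 56, 0 of 15 and 0 of 8 did, and of fibroblasts 0 of 74, 1 of 99 and 1 of 231. The median Vtn-positive cell had 22.6, 21.2 and 0 CPM and the highest 2243, 2068 and 932 CPM. The shares of Vtn-positive cells, 45.6%, 38.5% and 10%, had exact binomial (Clopper-Pearson) 95% intervals of 32.4% to 59.3%, 20.2% to 59.4% and 0.253% to 44.5%. Myh10 had the same shape in smooth muscle, where the median cell had 3.83, 0 and 0 CPM and 28 of 99, 19 of 67 and 2 of 14 cells reached 100 CPM. Myl9, in contrast, was at 10 CPM or more in every smooth muscle cell and every Vtn-positive cell of the 3 mice, with a coefficient of variation over smooth muscle cells of 29.7%, 38.9% and 43.4%, against 68.6%, 72.0% and 139% for Cnn1.

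**Figure D5:**
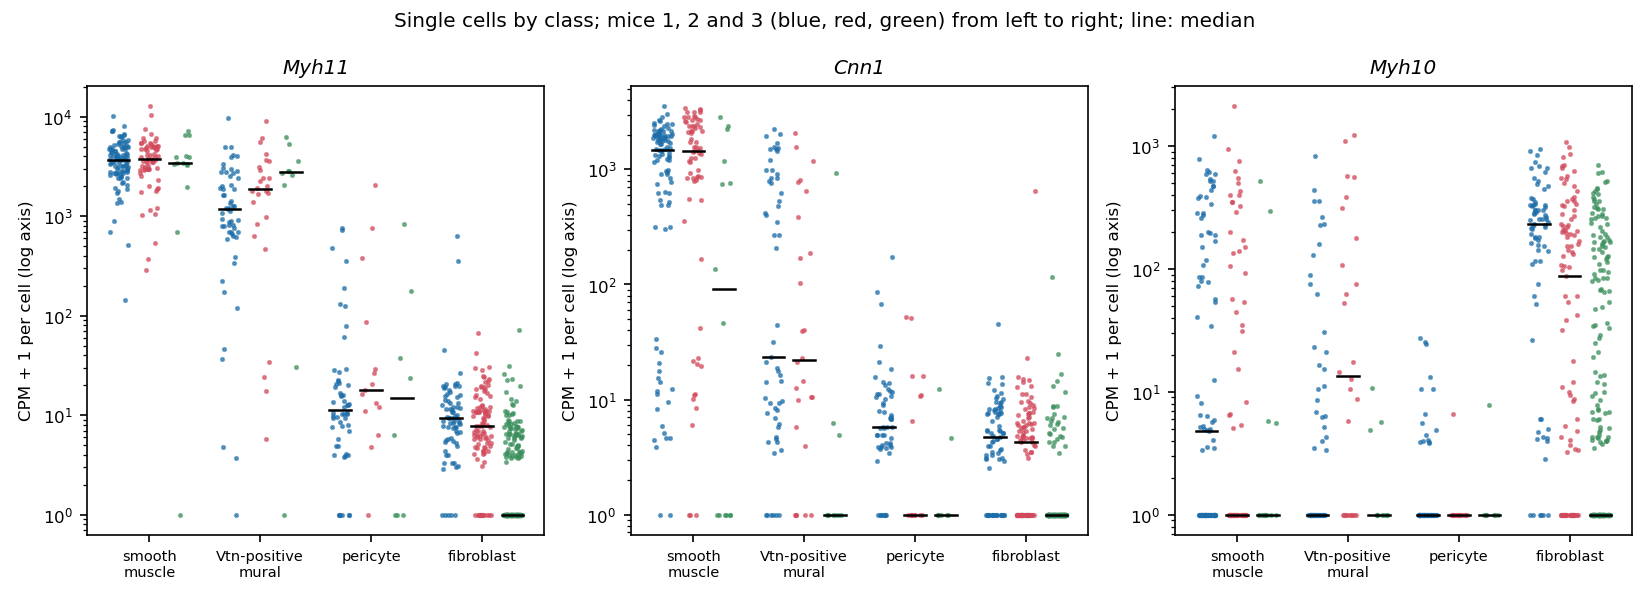
CPM plus 1 (log axis) of Myh11, Cnn1 and Myh10 in single cells of the 4 classes; blue, red and green points are mice 1, 2 and 3 and black lines are medians. Cnn1 forms a high and a low cloud in Vtn-positive cells, and Myh10 is at or near 0 in nearly all pericytes but spread up to about 1000 CPM in fibroblasts.

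Some letters of the promoters can be set beside these patterns. RefSeq start sites of GRCm38.p6 were given for 8 of the 10 genes. Myh11 and Tagln had no entry and were not searched. The 250 bases before each start were searched on both strands for the CArG box, the site known to bind serum response factor. They were also searched for CATTCC, the core letters of the MCAT element, whatever base followed them. A CArG box was found before 2 of the 8, the light chains Myl9 and Myl6, and before 1.47% of all 32851 promoters. CATTCC was found before 4 of the 8, Lmod1, Mylk, Smtn and Myh10, and before 12.6% of all promoters. A match is a run of letters, not a measured site. The runs of 30 bases around them are shown 5′ to 3′ on the gene's strand with the match in capitals, the light chains first, to show which members share which letters.
Myl9 (chr2:156775293-156775322, plus strand): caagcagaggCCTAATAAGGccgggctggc
Myl6 (chr10:128493040-128493069, minus strand): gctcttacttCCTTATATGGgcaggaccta
Lmod1 (chr1:135324671-135324700, plus strand): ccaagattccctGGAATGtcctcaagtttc
Mylk (chr16:34784780-34784809, plus strand): tgcagttcagaaCATTCCctggtacgtgca
Smtn (chr11:3539497-3539526, minus strand): cggtttgtggcaCATTCCggactttggctt
Myh10 (chr11:68691885-68691914, plus strand): cgggagcgggagccaatgagcatCATTCCa

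The CArG box begins 161 bases before the RefSeq start of Myl9 and 50 bases before 1 of the 2 starts given for Myl6. The CATTCC of Myh10 begins 7 bases before its RefSeq start. The stretches of Myl6, Mylk, Smtn and Myh10 lie inside the GENCODE gene spans given above, upstream of a RefSeq start within the span. Those of Myl9 and Lmod1 lie before their spans. In the lists described below, CArG boxes were found before Cnn2, Ldb3 and Vcl.

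In endothelial cells of C57BL/6 mouse 1 (232 cells) Myh11 was at 7.43 CPM, Myl9 at 65.8, Cnn1 at 0.100 and Tagln at 16.9, while Myl6 was at 419, Smtn at 341, Myh9 at 147 and Mylk at 132.4 CPM. In the 30 macrophages of double-reporter mouse 3, Myh11 was at 1.02, Cnn1 at 0.410, Tagln at 2.05 and Smtn at 3.69 CPM, and Myl6 at 318, Myh9 at 145 and Mylk at 87.2 CPM. The 6 macrophages of C57BL/6 mouse 1 differed from these, with Smtn at 239 and Myh9 at 47.9 CPM. Myh11 reached 10 CPM in 1 of these 30 macrophages and in 11 of 231 fibroblasts of the same mouse. The fibroblast level there was 2.76 CPM, beside 25.7 and 8.69 CPM in the fibroblasts of mice 1 and 2. The part of background reads in these values was not tested. Of the heavy-chain reads per kilobase, Myh9 held 72.0% in endothelial cells, 73.5% in endocardial cells and, in the macrophages of the 2 mice, 100% and 88.2%, and Myh10 held 78.2% in the 14 mesothelial cells. Apart from the macrophages, these values come from 1 mouse each and have no replicate check.

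The control of light-chain phosphorylation followed Mylk in part. Of 23 genes of that list, 6 were higher in smooth muscle than in fibroblasts (1.75% of all genes) and 3 were higher than in pericytes (1.38% of all genes). Against Vtn-positive cells 0 were called (0.0998% of all genes), and 0 were lower in any of these comparisons. The median log2 changes of the list were 0.89, 0.97 and 0.54, beside -0.28, 0.30 and 0.09 over all genes. Ppp1r12a, a targeting subunit of the myosin phosphatase, was at 691, 536 and 498 CPM in smooth muscle and 47.5, 23.2 and 34.0 in fibroblasts (4.09 ± 0.45, adjusted p = 0.000685). Ppp1r14a, the phosphatase inhibitor CPI-17, was at 317, 231 and 383 against 15.1, 20.0 and 66.0 CPM (3.37 ± 0.48, adjusted p = 0.00284). Against pericytes, Ppp1cb, a catalytic subunit of the phosphatase, was at 765, 949 and 508 against 64.3, 39.3 and 13.7 CPM (4.34 ± 0.48, adjusted p = 0.00152), and the targeting subunit Ppp1r12b at 639, 762 and 1019 against 52.5, 100.5 and 55.5 CPM (3.59 ± 0.52, adjusted p = 0.00642). The kinase Mylk and these subunits of the enzyme that opposes it were higher in smooth muscle, each subunit in the comparison given. The subunits were picked from the list for their large called changes, so they do not stand for all its phosphatase genes.

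Of 16 other thin-filament genes 12 were tested. Against fibroblasts 4 were higher in smooth muscle and 1 lower (3.36% of all genes were called, 1.75% higher), and against pericytes 3 were higher (1.38% of all genes). The median log2 changes were -0.25 and 0.42, close to the -0.28 and 0.30 of all genes. The tropomyosin genes Tpm2 and Tpm1 were picked for their large called changes, so they do not stand for all tropomyosins of the list. Tpm2 was at 2230, 2973 and 3053 CPM in smooth muscle, 701, 707 and 1108 in pericytes and 198, 107 and 117 in fibroblasts. Its log2 change against fibroblasts was 4.28 ± 0.32 (adjusted p = 4.79e-05). Tpm1 was higher by 3.10 ± 0.24 against fibroblasts (adjusted p = 5.34e-05) and by 1.75 ± 0.23 against pericytes (adjusted p = 0.00387). Tmod2, a pointed-end cap of actin filaments known from neurons, was lower, with 11.2, 2.54 and 2.13 CPM in smooth muscle and 51.0, 65.6 and 75.8 in fibroblasts (-4.17 ± 0.997, adjusted p = 0.0467).

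Of 18 dense-body and filament-anchorage genes, all tested, 9 were higher and 1 lower in smooth muscle than in fibroblasts (3.36% of all genes were called, 1.75% higher). Against pericytes 8 were higher (1.38% of all genes), and 0 were called against Vtn-positive cells (0.0998% of all genes). The median log2 changes were 2.08, 2.01 and 0.53, beside -0.28, 0.30 and 0.09 over all genes. Desmin (Des), an intermediate filament protein, was at 1240, 1209 and 630 CPM in smooth muscle and 11.3, 9.80 and 14.97 in fibroblasts (6.49 ± 0.48, adjusted p = 4.79e-05). Ldb3, a Z-disc protein, was at 322, 331 and 269 against 2.47, 0.962 and 1.12 CPM (7.63 ± 1.53, adjusted p = 0.0204). Vimentin (Vim), the intermediate filament of mesenchymal cells, was the gene that was lower, with 1753, 1904 and 911 CPM in smooth muscle and 3172, 2610 and 2099 in fibroblasts (-0.83 ± 0.18, adjusted p = 0.029). Against pericytes Synm, which binds desmin, was higher, at 112, 80.8 and 92.5 against 3.32, 0 and 0 CPM (6.64 ± 1.44, adjusted p = 0.0405, a fit that depends on the prior count). Synm was at 10.4 to 25.5 CPM in fibroblasts. Cardiomyocyte markers summed to 687, 479 and 136 CPM in smooth muscle and 74.0 to 126.9 CPM in fibroblasts, and their part in the values of the Z-disc gene Ldb3 was not tested.

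Over 27 sums of 13 classes and all mice with at least 5 cells, and among 11380 genes, the non-member genes most like Myh11 by the Pearson correlation of log2(CPM + 1) were Kcnmb1 (0.93), Cap2 (0.92), Acta2 (0.92), Tpm1 (0.91), Tpm2 (0.90), Dgkb (0.90), Gm13889 (0.89) and Fbxl22 (0.89). Of the 10 genes, Tagln (0.90) and Cnn1 (0.89) were nearest to Myh11, and Myh9 (0.33) and Myh10 (0.23) farthest. The genes most like Myh10 were Nox4 (0.82), Foxp2 (0.82), Dpysl3 (0.80), Aebp1 (0.79), Eln (0.79), Fbln5 (0.78), Tmem98 (0.78) and Tmem53 (0.78). Elastin and fibulin 5, encoded by Eln and Fbln5, are matrix proteins of elastic fibres. The sums share mice and plates, so these correlations are descriptions.

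Over single smooth muscle cells the 10 genes did not vary as a block. Spearman's rho in mice 1, 2 and 3 (99, 67 and 14 cells) was 0.40, 0.53 and 0.60 for Myh11 with Mylk, 0.65, 0.49 and 0.46 for Smtn with Cnn1 and 0.50, 0.43 and 0.45 for Myh10 with Cnn1. For Myh11 with Myh10 it was -0.10, -0.18 and -0.07, and for Mylk with Myh10 -0.45, -0.31 and -0.04. Myl9 with Tagln gave 0.53, 0.76 and 0.59, and Myl9 with Myl6 0.70, 0.81 and 0.23. These 3 genes also varied with the cell's total count (-0.66, -0.58 and -0.56 for Myl9, -0.45, -0.40 and -0.31 for Myl6, -0.23, -0.32 and -0.23 for Tagln), as did Smtn (0.43, 0.25 and 0.65) and Myh10 (0.34, 0.23 and 0.31), and the part of depth in these relations was not tested.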

How the data were processed

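All values start from the table of counts that the authors deposited, in whole reads for each gene in each cell. The submitters' processing notes name featureCounts, Subread, Bowtie2, Bowtie and bcl2fastq and the build GRCm38 (mm10), and the sources used here give no versions, no strand setting and nothing on duplicate reads. No pair of cells held identical values. Clustering used scanpy 1.11.5 (2000 variable genes, 30 components, 15 neighbours, Leiden resolution 1, seed 0), with 117 genes withheld (the 10 genes, the lists, sex-linked, mitochondrial and ribosomal RNA genes). No doublet caller was run, and cells over 500 CPM of endothelial markers were left out in an alternative. A cluster of 35 fibroblast-like cells with Acta2 of 1000 CPM or more, a threshold set after seeing the data, was kept out of the fibroblast class. For each class the counts of a mouse's cells (5 or more) were added up and fitted jointly with edgeR 4.0.16 (quasi-likelihood test, TMM, filterByExpr, mouse as a block because the classes come from the same animals, Benjamini-Hochberg adjusted p under 0.05). Same-mouse deviations from the class means correlated at 0.0185 to 0.192 over 10319 genes. The SE of an edgeR change was worked back from the test, as the absolute log2 change divided by the square root of its F statistic. DESeq2 1.42.0 was an alternative. The test script was tried on simulated data for smooth muscle against fibroblasts, where it missed most of the changes put in. A gene that was not called may therefore still differ between classes. Coordinates and exonic lengths are from GENCODE M21, promoters from RefSeq. Besides the 10 genes, the text names the 2 called genes of each list with the largest change each way against fibroblasts, pericytes and Vtn-positive cells among genes at 50 CPM or more in the higher class, all other myosin chains, and the 8 genes most like Myh11 and Myh10. The 10 genes, lists and comparisons were chosen with earlier results of these data known. A gene that this rule would name is not reported here.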

Additional observations from a re-analysis of the deposited data

Results flagged for a closer look

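Outside the 4 classes compared, Myh11 was high in a group of fibroblast-like cells. The 35 cells of the Acta2-positive fibroblast cluster had 878 CPM of Myh11 together, far above the 12.4 CPM of the fibroblast class. The level differed between the mice, at 1761, 31.1 and 117 CPM in mice 1, 2 and 3, from 15, 13 and 7 cells. Tagln followed with 2082, 546 and 244 CPM and Mylk with 1128, 183 and 3.81 CPM, while Cnn1 was at 792, 17.6 and 329 CPM, with a count in 12 of 15, 4 of 13 and 1 of 7 cells. Most of the signal of Myh11 came from mouse 1. The 7 smooth muscle markers summed to 5369 CPM in the cells of mouse 1.

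The 13 cells of cluster 15, all from C57BL/6 mouse 1, had 953 CPM of Myh11. They had Myl9 at 1540, Mylk at 832 and Tagln at 836 CPM, and Cnn1 at 23.1 CPM. The cluster was left unnamed, and it held Pecam1, an endothelial marker, at 1282 CPM beside Acta2 at 2480 and Vtn at 411 CPM. The part of cells captured together was not tested.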

How the results depend on the processing

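Of the values of single members under an alternative, 1444 kept their direction and their side of the threshold, 57 were called in addition, 74 lost their call and 34 changed direction, none of the 34 being called in the fit as reported. For smooth muscle against fibroblasts, 6 to 7 of the 10 genes were called with a mouse left out in turn. For smooth muscle against pericytes the 8 called genes became 1 to 5 with a mouse left out (1 without mouse 2), 5 with at least 10 cells per sum and 4 with the pericyte gate at 1000 CPM. Between smooth muscle and Vtn-positive cells 1 gene was called by DESeq2 and 1 at clustering resolution 0.5, and 0 with any mouse left out. For Vtn-positive cells against fibroblasts the 7 became 4 to 6 with a mouse left out and 4 with only the 2 classes fitted. For pericytes against fibroblasts the 5 became 2 to 4 with a mouse left out (2 without mouse 2), 3 with only the 2 classes fitted, 3 with at least 10 cells per sum and 1 with the Acta2-positive fibroblast cluster included. For Vtn-positive cells against pericytes the 1 call became 7 with DESeq2, 6 with no filter, 1 to 2 with a mouse left out, 0 and 3 with the pericyte gate at 1000 and 5000 CPM, 2 with the Vtn gate at 30 CPM, 7 and 2 at clustering resolutions 0.5 and 2 and 4 with classes from marker gates alone. It became 2 without and 8 with only the Vtn-positive cells of smooth muscle clusters, and 3 and 5 with fibroblasts of cluster 0 only and without it. Without the replicate block it was 4. The block changed no other count of members by over 1.5 times. In the Rgs5 split DESeq2 called 3, and leaving out a mouse was not run because 1 mouse leaves no residual degrees of freedom. The cause of these changes was not tested. With the length of the longest transcript Myh11 held a mean of 94.7% of the heavy-chain reads per kilobase in smooth muscle, against 95.9% with all exons. In pericytes Myh11 went from 49.9% to 40.5% and Myh9 from 49.7% to 59.2%.

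Changes of direction in the Rgs5 split (log2 changes) were those of Myl9 without the replicate block (-0.0021), of Myl6 (0.49), Myh9 (0.59), Tagln (0.48) and Lmod1 (0.75) at clustering resolution 0.5, and of Myh11 (-0.14), Myl9 (-0.16) and Myh9 (0.33) with marker gates alone. Between smooth muscle and Vtn-positive cells, resolution 0.5 gave -0.20 for Myh11, -0.12 for Myl9, -0.28 for Mylk, 0.42 for Myh9 and -0.075 for Tagln, marker gates alone gave 0.092 and Vtn-positive cells of smooth muscle clusters only 1.10 for Myh9, and leaving those cells out gave -0.16 for Myh10. Smtn, at -0.0011 between Vtn-positive cells and pericytes, came to 0.0028 without the replicate block, 0.38 without mouse 1, 0.021 with only the 2 classes, 0.16 with at least 10 cells, 0.072 without cells high in endothelial markers, 0.24 with the pericyte gate at 1000 CPM, 0.021 with the Vtn gate at 30 CPM, 0.54 at resolution 0.5, 0.32 with marker gates alone, 0.022 with the Acta2-positive cluster, 0.64 with only the Vtn-positive cells of smooth muscle clusters and 0.0014 with fibroblast cluster 0 only. Myh9 there came to 0.17 without those Vtn-positive cells, and to -0.27 against fibroblasts with only them. Between pericytes and fibroblasts Lmod1 came to 1.99 with the pericyte gate at 1000 CPM and 1.57 without fibroblast cluster 0, and Cnn1 to -2.32 with the Acta2-positive cluster and -0.10 with cluster 0 only.

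Over all genes, edgeR called 538 between smooth muscle and fibroblasts (136 to 765 over the alternatives, 1567 with DESeq2), 346 against pericytes (44 to 396, 1863) and 16 against Vtn-positive cells (0 to 100, 608). Vtn-positive cells differed from pericytes in 73 genes (1 to 160, 1060) and from fibroblasts in 403 (113 to 831, 1615), pericytes from fibroblasts in 640 (154 to 827, 2317), and the Rgs5 split in 1 (0 to 18, 882). Alternatives on the Acta2-positive cluster, on the clusters that make up a class and on the Rgs5 gate were chosen after seeing the data. Mouse 3 holds 14 smooth muscle cells and 8 pericytes, and the pericyte sums of Myh10, Lmod1 and Cnn1 rest on 27 or fewer, 1174 or fewer and 197 or fewer counts, which limits the precision of their changes.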

Other observations

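The 26 mural cells of mouse 1 that had Vtn under 100 CPM but lay outside the smooth muscle clusters belong to no class compared. They had Myh11 at 1036 CPM, Myl9 at 1863 CPM, Tagln at 1066 CPM and Mylk at 395 CPM. Cnn1 was at 472 CPM and Myh10 at 168 CPM, near the 520 CPM and above the 59.1 CPM of the Vtn-positive cells of the same mouse. These values come from 1 mouse and have no replicate check.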
